A study of Mus musculus with 26 samples.

Results

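The genes described here encode the products by which a mouse egg builds its coat and signals to its surroundings, and regulators that act beside them. They were set by name as Zp1, Zp2, Zp3, Gdf9, Bmp15, Mos, Oosp1, Figla and Nobox, and all 9 were found among the 55487 genes of the deposited table. Their RNA was read in mouse embryos at the 8-cell stage, blastomere by blastomere, with scRR-seq, which profiles the total RNA and the replication state of the DNA of one cell. The 9 blastomeres analysed came from 2 embryos, with 3 cells (cells 1, 6 and 7) from embryo 1 and 6 cells (cells 2, 3, 5, 6, 7 and 8) from embryo 2. All embryos were made by in vitro fertilisation from C57BL/6 mice, carried no stated allele or treatment, and were taken apart by hand. By the study's classification the analysed embryo 1 cells were in G1 or G2/M and the embryo 2 cells in S phase, so embryo and cell-cycle class cannot be told apart here. Each embryo was 1 biological replicate and its cells were sisters, so differences are described beside the spread between cells and were not tested.

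The zona pellucida is the glycoprotein coat around the egg and the early embryo. In the mouse it is built from ZP1, ZP2 and ZP3, which are made by the growing oocyte. GDF9 and BMP15 are TGF-beta family factors through which the oocyte acts on the granulosa cells around it. MOS is a kinase upstream of the MAP kinases that holds the mature egg in meiosis, and OOSP1 is an oocyte-secreted protein. FIGLA, a basic helix-loop-helix factor that binds E-boxes in the zona promoters, and NOBOX, a homeobox factor, direct oocyte genes in the ovary. RNAs of this kind are stored in the egg and broken down after fertilisation, while the embryo begins to transcribe its own genome. The data were asked how much of this RNA was present at the 8-cell stage, in which cells, and whether it differed between cells.

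A pair of promoter stretches is shown because they carry letters that the pair of transcription factors among these genes is known to bind. They are the 250 bases before the annotated start of Zp3 (chr5:135979855-135980104, plus strand) and of Bmp15 (chrX:6320725-6320974, minus strand), from RefSeq on GRCm38.p6. Capitals mark the E-box CACGTG in Zp3 and the homeobox motif TAATTA in Bmp15.
Zp3: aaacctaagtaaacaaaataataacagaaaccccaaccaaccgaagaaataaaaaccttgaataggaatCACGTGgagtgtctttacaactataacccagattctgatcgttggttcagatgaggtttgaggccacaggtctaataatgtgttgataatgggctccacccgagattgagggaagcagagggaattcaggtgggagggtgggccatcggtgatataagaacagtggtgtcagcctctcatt
Bmp15: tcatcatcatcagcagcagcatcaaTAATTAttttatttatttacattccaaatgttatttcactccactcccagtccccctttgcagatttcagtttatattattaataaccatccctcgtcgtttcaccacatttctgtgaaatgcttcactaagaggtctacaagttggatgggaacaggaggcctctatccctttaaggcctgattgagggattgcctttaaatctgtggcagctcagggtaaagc
Promoter entries from 250 bases before to 50 bases after the start were matched for 5 of the 9 genes, namely Zp3, Bmp15, Oosp1, Figla and Nobox. For some genes the start of the entry differs from that of GENCODE M21, used for the loci below. The Figla entry lies inside the GENCODE gene. The others were Zp1, Zp2, Gdf9 and Mos. Searched on both strands, CACGTG occurred in Zp3 alone of these 5, with its first base at position -181 from the start, and in 7.15% of all 32851 promoters. Every CACGTG is also a match to the general E-box CANNTG, which all 5 held, as did 72.3% of all promoters. TAATTA occurred in Bmp15 alone of the 5, at position -225, and in 5.29% of all promoters. TAATTG, the other form searched, occurred in none of the 5 and in 8.0% of all promoters. These matches describe letters in a window and do not say that a factor bound there.

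RNA of the zona and secreted-factor genes was measured in the 8-cell blastomeres, at low to moderate levels. No earlier stage was measured, so RNA carried over from the egg and RNA made by the embryo cannot be told apart. At TPM > 1, all 9 genes were detected in at least 1 cell, where 60.5% of the 21897 protein-coding genes were. Detection in all 9 cells was found for 3 genes, Zp3, Zp2 and Gdf9, where 30.6% of protein-coding genes were detected in all cells. A cell had 5.33 ± 1.41 (SD, n = 9 cells) of the 9 genes above 1 TPM, with a range of 3 to 7. Of the 81 values of a gene in a cell, 48 were above 1 TPM and 27 were listed at 0. TPM is a share of a cell's RNA, scaled by transcript length, and keeps no read depth. A value of 0 is therefore given as listed at 0 and not as absence. Of 12 genes that cells use generally, Gapdh was listed at 0 in embryo 2 cell 6, the only such value among them. Such values thus occur for RNA that cells are known to hold, although far less often than among the 9 genes, which had 27.

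**Figure D1:**
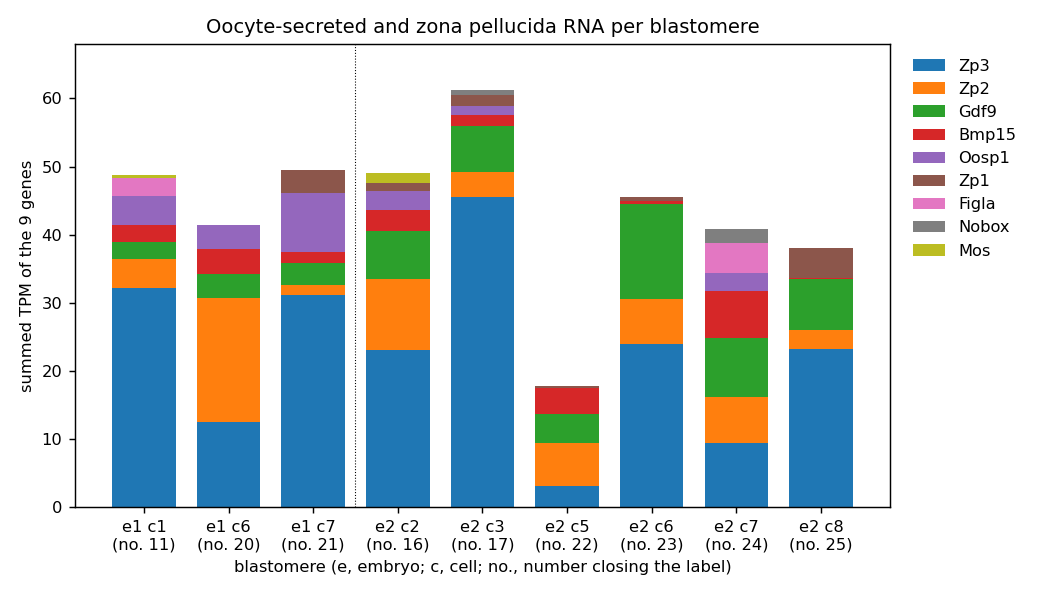
Stacked bars give the TPM of the 9 genes in each of the 9 blastomeres, with embryo 1 to the left of the dotted line and embryo 2 to the right. Zp3 is the largest part in 7 of the 9 cells, and embryo 2 cell 5 has the lowest sum at 17.9 TPM.

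Summed over the 9 genes, the level was 43.6 ± 11.8 TPM (SD, n = 9 cells). These cells span 2 versions of the protocol, which are set apart further below. In embryo 1 the sum was 48.8, 41.4 and 49.5 TPM for cells 1, 6 and 7. In embryo 2 the lowest sum was 17.9 TPM in cell 5 and the highest was 61.3 TPM in cell 3, with a mean of 42.1 ± 14.4 TPM (SD, n = 6 cells). Embryo 2 cell 5 stood lowest, and the embryos overlapped. That cell also had the highest share of mitochondrial RNA, 18.2% against 4.28% to 16.7% in the other cells, and its sum was 21.9 TPM once the mitochondrial genes were left out of the total.

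Zp3 (ENSMUSG00000004948.12, chromosome 5, 135980099 to 135988624, plus strand) was the most abundant of these RNAs by mean. Positions are those of GENCODE M21 on GRCm38 (mm10), with introns included. It encodes the zona protein long studied as a sperm receptor, and its level was 22.7 ± 12.97 TPM (SD, n = 9 cells), above 82.2% of protein-coding genes by mean. In embryo 1 cells 1, 6 and 7 it was at 32.23, 12.57 and 31.18 TPM. Cells 2, 3, 5, 6, 7 and 8 of embryo 2 held 23.11, 45.58, 3.18, 23.97, 9.50 and 23.19 TPM. Every cell had Zp3 RNA, the highest and lowest cells were both in embryo 2, and they differed 14.3-fold. Zp3 took between 17.8% and 74.4% of the sum over the 9 genes. All of its signal was assigned to the protein-coding transcript Zp3-201.

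Zp2 (ENSMUSG00000030911.7, chromosome 7, 120126772 to 120145291, minus strand), whose protein is cleaved after fertilisation as part of the block to further sperm, was at 6.70 ± 5.02 TPM (SD, n = 9 cells). It was at 4.28, 18.14 and 1.5 TPM in embryo 1, so that embryo held both the highest and the lowest cell. In embryo 2 it was at 10.35, 3.59, 6.30, 6.59, 6.65 and 2.86 TPM in the order of cells given for Zp3. Zp2 exceeded Zp3 in embryo 1 cell 6 and embryo 2 cell 5, the cells with Zp3 at 12.57 and 3.18 TPM. The full-length coding transcript Zp2-201 was above 1 TPM in all 9 cells and held 87.1% of the signal. A retained-intron transcript, Zp2-204, was at 3.24 TPM in embryo 2 cell 5, beside 3.06 TPM for Zp2-201.

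Zp1 (ENSMUSG00000024734.8, chromosome 19, 10914287 to 10920632, minus strand), whose product cross-links the filaments of the other zona proteins, was the lowest of the zona RNAs by mean, although it exceeded Zp2 in embryo 1 cell 7 and embryo 2 cell 8. It was listed at 0 in embryo 1 cells 1 and 6 and was at 3.4 TPM in cell 7. In embryo 2 it was at 1.07, 1.56, 0.35, 0.62, 0 and 4.38 TPM. Thus 4 of the 9 cells were above 1 TPM, and cells at 0 occurred in both embryos. The highest value was mostly from the 4-exon transcript Zp1-202, at 3.97 TPM in embryo 2 cell 8, while the 12-exon Zp1-201 was at 0.41 TPM there.

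Gdf9 was detected in all cells and Bmp15 in 7 of 9. Gdf9 (ENSMUSG00000018238.6, chromosome 11, 53431023 to 53437904, plus strand) had levels of 2.49, 3.49 and 3.11 TPM in embryo 1. In embryo 2 it was at 7.04, 6.72, 4.25, 13.98, 8.64 and 7.39 TPM. Every embryo 2 cell was above every embryo 1 cell, and the coding transcript Gdf9-201 made up 96.3% of the signal. Bmp15 (ENSMUSG00000023279.7, chromosome X, 6314107 to 6320721, minus strand) was at 2.46, 3.78 and 1.62 TPM in embryo 1. It was at 3.16, 1.72, 3.79, 0.40, 6.98 and 0.20 TPM in embryo 2. Its cells overlapped, with the 2 cells below 1 TPM in embryo 2, and its lowest and highest values differed 34.9-fold. Gdf9 exceeded Bmp15 in 8 of 9 cells.

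Oosp1 (ENSMUSG00000041857.10, chromosome 19, 11667460 to 11691150, minus strand) showed the reverse order. Its levels in embryo 1 were 4.29, 3.46 and 8.73 TPM. Those in embryo 2 were 2.82, 1.34, 0, 0, 2.64 and 0 TPM. Every embryo 1 cell was above every embryo 2 cell. The transcripts behind these values were not the same ones in the cells. The 3-exon transcript Oosp1-203 was at 3.01, 1.85 and 8.73 TPM in embryo 1 and listed at 0 in all 6 embryo 2 cells. The 5-exon Oosp1-201 reached 1.27 and 1.61 TPM in cells 1 and 6 of embryo 1 and 1.57 and 2.64 TPM in cells 2 and 7 of embryo 2. A transcript annotated for nonsense-mediated decay, Oosp1-202, reached 1.25 and 1.34 TPM in cells 2 and 3 of embryo 2. At such levels the division of reads between transcripts of one gene is an estimate of RSEM and is uncertain. The same limit holds for the transcripts of Zp1, Zp2 and Nobox.

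The kinase and the transcription factors were listed at 0 in most cells. Mos (ENSMUSG00000078365.5, chromosome 4, 3870657 to 3872105, minus strand), a gene of 1 exon, reached 0.44 TPM in cell 1 of embryo 1 and 1.47 TPM in cell 2 of embryo 2, and was listed at 0 in the other 7 cells. Figla (ENSMUSG00000030001.4, chromosome 6, 86016171 to 86020996, plus strand) reached 2.65 TPM in cell 1 of embryo 1 and 4.31 TPM in cell 7 of embryo 2, and was listed at 0 in the other 7. Nobox (ENSMUSG00000029736.15, chromosome 6, 43303674 to 43309554, minus strand) reached 0.75 and 2.10 TPM in cells 3 and 7 of embryo 2 and was listed at 0 in the other 7, embryo 1 included. Both Nobox values came from Nobox-203, a 3-exon processed transcript without a coding annotation, and the coding transcripts Nobox-201 and Nobox-202 were listed at 0 in every cell. Thus only embryo 2 cell 7 held both factors above 1 TPM, and 6 cells were listed at 0 for both. Of the 22 annotated transcripts of the 9 genes, 7 were listed at 0 in all cells.

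By mean TPM the order was Zp3, Zp2, Gdf9, Bmp15, Oosp1, Zp1, Figla, Nobox and Mos. For each of the 8 pairs of neighbours in this order, the mean difference in log2(TPM + 1) within a cell was smaller than its SD over the 9 cells. The gap between Zp3 and Zp2 came nearest, at 1.59 ± 1.63 (SD, n = 9 cells), and Zp3 was the higher in 7 cells. This SD is a spread between cells and not an error of the mean. No pair of neighbours kept the same order in all 9 cells, and the order by mean was not tested.

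**Figure D2:**
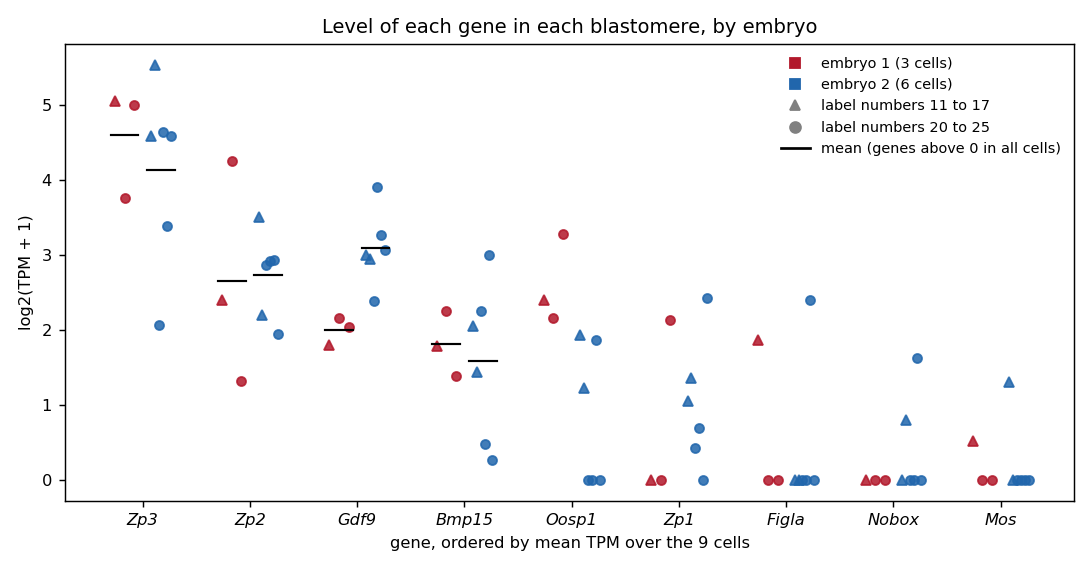
Each point is 1 blastomere, placed by log2(TPM + 1), with embryo by colour and label number range by shape, and black bars give the mean for genes above 0 in all cells. Gdf9 is higher in all embryo 2 cells and Oosp1 is lower in all of them, while the other 7 genes overlap.

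Between the embryos the genes did not move as a group. Differences are those of embryo 2 from embryo 1 in the mean of log2(TPM + 1). Their median over the 9 genes was 0.04, and over the 19854 genes with TPM > 1 in at least 1 cell it was -0.02. All 9 genes passed that filter, Mos and Nobox through 1 cell each. By mean, 5 genes were higher and 4 were lower in embryo 2. Gdf9 was the 1 gene with every embryo 2 cell above every embryo 1 cell, which held for 0.62% of all genes. Oosp1 was the 1 gene with every embryo 2 cell below, which held for 1.95% of all genes. The Gdf9 difference was 1.09 beside a pooled SD of 0.43 between cells, and means of 3.03 ± 0.50 TPM (SD, n = 3 cells) and 8.00 ± 3.26 TPM (SD, n = 6 cells) gave a ratio of 2.64. The Oosp1 difference was -1.78 with a pooled SD of 0.86. These were the genes past their pooled SD, 1 of 9 upwards and 1 of 9 downwards, where 7.3% and 16.7% of all genes were. For the other 7 genes the differences lay between -0.47 for Zp3 and 0.41 for Nobox, all within their pooled SD. Single cells moved them widely, from -0.60 to 0.87 for Zp2 and from -0.08 to 0.99 for Zp1 when 1 cell was left out, so no direction is given for these genes.

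The differences of Gdf9 and Oosp1 were then read within the ranges of label numbers. Both genes were picked out after their values were seen. As their embryos did not overlap, a split by range could not change the sign. The titles close in numbers from 11 to 17 for 3 cells and from 20 to 25 for 6 cells, and the first range held 1 cell of embryo 1 and 2 of embryo 2, so its values rest on that 1 cell. The Gdf9 difference was 1.18 within the first range and 1.06 within the second. That of Oosp1 was -0.82, smaller than its pooled SD, and -2.25. With mitochondrial genes left out of the total, Gdf9 ranged from 2.66 to 3.74 TPM over the embryo 1 cells and from 5.20 to 15.4 TPM over the embryo 2 cells. Oosp1 ranged from 3.71 to 9.12 TPM and from 0 to 3.04 TPM. Neither pair of ranges overlapped. No annotated gene overlaps any of the 9 loci. The nearest neighbour, Uqcrq, lies on the other strand 192 bases from Gdf9 and was at 124 to 317 TPM, and its part in the Gdf9 values was not tested.

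The label number ranges differ by protocol in the study's sample list, scRR3 for 11 to 17 and scRR1, with a smaller lysis volume, for 20 to 25. In embryo cells the study reports coverage skewed to the 3' end and fewer transcripts with scRR1 than with scRR3. The part of this in the transcript values given above was not tested. Cells in the first range had 12411 to 13319 genes above 1 TPM and those in the second had 11058 to 11960. Of the 9 genes, 6 to 7 were above 1 TPM in cells of the first range and 3 to 7 in cells of the second. Their summed level was 53.04 ± 7.12 TPM (SD, n = 3 cells) in the first range. In the second it was 38.88 ± 11.05 TPM (SD, n = 6 cells), and the sums overlapped. Embryo 2 cell 5, with the lowest sum, was in the second range. Zp3 was higher in the first range, with 23.11 to 45.58 TPM against 3.18 to 31.18 TPM, a log2 difference of 1.15 beside a pooled SD of 0.95. Its cells overlapped. The difference was 0.67 within embryo 1 and 1.39 within embryo 2. It was 0.78 to 1.39 when 1 cell was left out, lowest without embryo 2 cell 5, and 0.93 when cells were centred on their median. Both cells with any Mos signal were in the first range. Its difference of 0.61, beside a pooled SD of 0.35, rests on embryo 2 cell 2, through which alone Mos passed the filter, and was 0.26 without that cell. With Mos counted, 2 of 9 genes were past the pooled SD upwards and none was past it downwards, where 26.6% and 4.64% of all genes were. None of the 9 had ranges that did not overlap, while 4.84% of all genes were higher in every cell of the first range and 0.861% were lower. The median difference was 0.16 over the 9 genes and 0.25 over all 19854.

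No pair of these RNAs followed each other closely across cells. Over the 4 genes above 1 TPM in at least 7 cells (Zp2, Zp3, Gdf9 and Bmp15), Pearson's r of log2(TPM + 1) across the 9 cells lay between -0.53 for Zp3 with Bmp15 and 0.48 for Zp2 with Bmp15. Spearman's rho was larger for the same pairs, at -0.67 and 0.63. These are descriptions over 9 cells that share 2 embryos, 2 protocols and a fixed TPM total. Out of 6860 genes whose mean log2(TPM + 1) reached 3, those most like Zp3 were Cbr1 (r = 0.96), Zfp821 and Cnot3 (both 0.94), and 18 genes reached 0.9. For Zp2 they were Nampt (0.94), Rchy1 and Ndc1 (both 0.92). For Gdf9 they were Ccdc12 (0.94), Zfp706 (0.92) and Ccng1 (0.91), and for Bmp15 Kif2a (0.97), Tom1l1 (0.94) and Snapc4 (0.93). The number of genes that reached 0.9 was 4 for Zp2, 3 for Gdf9 and 11 for Bmp15. These r are the highest among 6860 genes over only 9 cells and were not tested. No gene named for one of the 4 recurred for another.

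**Figure D3:**
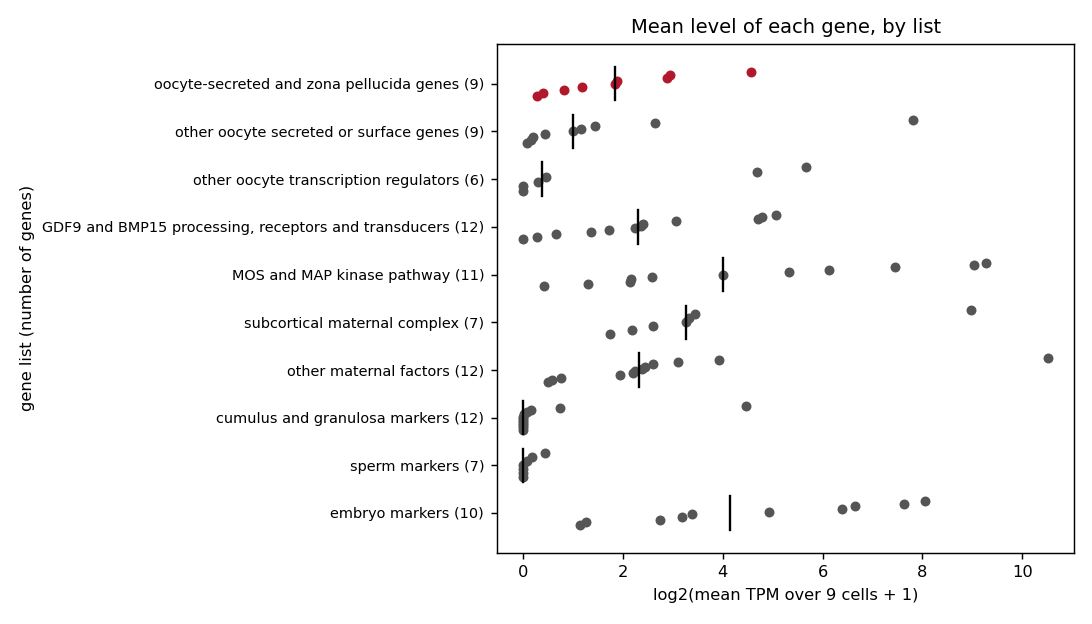
Each point is 1 gene, placed by log2 of its mean TPM over the 9 cells plus 1, in rows by gene list, and bars mark the median of a list. The 9 genes lie between 0.21 and 22.7 TPM by mean, below single abundant genes such as Cd9, Khdc3 and Dppa3, while 7 of 12 cumulus and granulosa markers and 4 of 7 sperm markers are at 0.

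Related genes were then read in the same cells. Of 9 other oocyte secreted or surface genes, 2 were above 1 TPM in all cells. Cd9, a tetraspanin of the egg surface needed for fusion with sperm, was at 140 to 322 TPM, and Plat, which encodes tissue plasminogen activator, was at 1.2 to 7.70 TPM. Oosp3 was at 0 to 9.65 TPM, with its highest value in embryo 1 cell 7, which was also the highest for Oosp1. Among 6 other oocyte transcription regulators, Foxo3 was at 29.9 to 80.5 TPM and Taf4b at 11.1 to 39.8 TPM, whereas Lhx8, with a highest value of 2.61 TPM, was listed at 0 in 7 cells like Figla and Nobox. Sohlh1 and Tbpl2 were listed at 0 in all 9 cells.

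Of 12 genes for the processing and reception of GDF9 and BMP15, 4 were above 1 TPM in all cells. The signal transducers Smad4, at 14.6 to 54.1 TPM, and Smad2, at 13.9 to 50.2 TPM, were the highest, with the receptor Bmpr1a at 6.85 to 48.9 TPM. The other receptors were lower by mean, with Tgfbr1 at 2.65 to 12.2 TPM, Bmpr2 at 0.36 to 6.2 TPM and Bmpr1b at 0 to 4.4 TPM. The inhibitor Fst was listed at 0 in every cell. The kinases downstream of MOS were present in cells with Mos listed at 0. Of 11 genes of this pathway and of the meiotic arrest, 6 were above 1 TPM in all cells, with Ccnb1 at 338 to 1018 TPM, Cdk1 at 241 to 882 TPM and the MAP kinase kinase Map2k2 at 103 to 254 TPM. These genes also serve the mitotic cell cycle and general signalling. In each of these lists 1 gene was lower in every embryo 2 cell, namely Smad9 at up to 0.63 TPM and Mapk3, whose lowest embryo 1 cell was at 5.54 TPM and whose highest embryo 2 cell was at 4.65 TPM. Over all genes with TPM > 1 in a cell this held for 1.95%, a set that Mapk3 is in and Smad9 is not. Both were picked out after their values were seen.

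Other genes known as maternal factors spanned a wider range, and the source of their RNA cannot be told here either. In the subcortical maternal complex, a protein assembly of the egg needed for cleavage, 5 of 7 genes were above 1 TPM in all cells. Khdc3 was at 411 to 752 TPM, Tle6 at 3.28 to 17 TPM and Padi6 at 3.83 to 16.6 TPM. Of 12 other maternal factors, 2 were above 1 TPM in all cells, Dppa3, which protects maternal DNA methylation in the zygote, at 1138 to 2169 TPM, and Gtsf1 at 7.11 to 28.0 TPM. Ybx2, a binder of stored RNA, followed at 0 to 11.8 TPM. The median of the mean levels was 2.59 TPM over the 9 genes described here, 8.67 TPM over the subcortical complex and 3.98 TPM over the other maternal factors. The median difference of embryo 2 from embryo 1 was -0.34 and 0.03 for the subcortical complex and the other maternal factors.

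Embryo markers were measured in these cells, while most cumulus, granulosa and sperm markers were at or near 0. Of 10 embryo markers, 6 were above 1 TPM in all cells, led by Klf5 at 141 to 443 TPM, Pou5f1 at 117 to 346 TPM and Cdh1 at 52.4 to 180 TPM. The others were each listed at 0 in some cells, Cdx2 in 5, Eomes in 3, Krt8 in 2 and Gata3 in 1. Of 12 cumulus and granulosa markers, the cells that surround the egg, 7 were listed at 0 in all 9 cells, among them Fshr, Amh, Cyp19a1, Has2 and Ptgs2. Amhr2 was the exception, at 9.73 to 35.4 TPM in every cell with no annotated gene overlapping it. Prr13, 4395 bases away on the same strand, was at 153 to 289 TPM, and its part in the Amhr2 values was not tested. Ptx3 was at 6.13 TPM in embryo 2 cell 6 and listed at 0 elsewhere. Without Amhr2 the markers summed to 0 to 0.23 TPM per cell in embryo 1 and 0 to 6.13 TPM in embryo 2. Of 7 sperm markers, Prm1 reached 1.62 TPM in 1 cell and 1.55 TPM in another, Prm2 reached 1.2 TPM in 1 cell, and 4 were listed at 0 in all cells.

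The DNA of the same cells gave the replication state at 6 of the 9 loci, in bins of 40 kb. Bmp15, on chromosome X, and Figla and Nobox, on chromosome 6, lie on chromosomes without bins in the table and were not analysed here. In embryo 2, 34 of the 36 states were replicated, 97.1% of those with a state, where 91.5% were over protein-coding genes with bins. Mos was unreplicated in cell 6 and Zp3 had no state in cell 3. Embryo 2 cell 6 also had the lowest share of replicated bins, 62.4% against 74.2% to 80.5% in the other 5 cells. In embryo 1, none of the 18 states was replicated, and these cells had 0.0039% to 3.54% of all bins replicated. A uniform copy number before or after replication gives the same state, so this does not place the cells in G1 and is not particular to these loci. The study also took embryo cells of the G1 or G2/M class as the reference when correcting its S phase cells. Loci replicated in all 6 embryo 2 cells were 4 of 6 (Zp2, Gdf9, Oosp1 and Zp1), where 67.5% of 18069 protein-coding genes were.

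**Figure D4:**
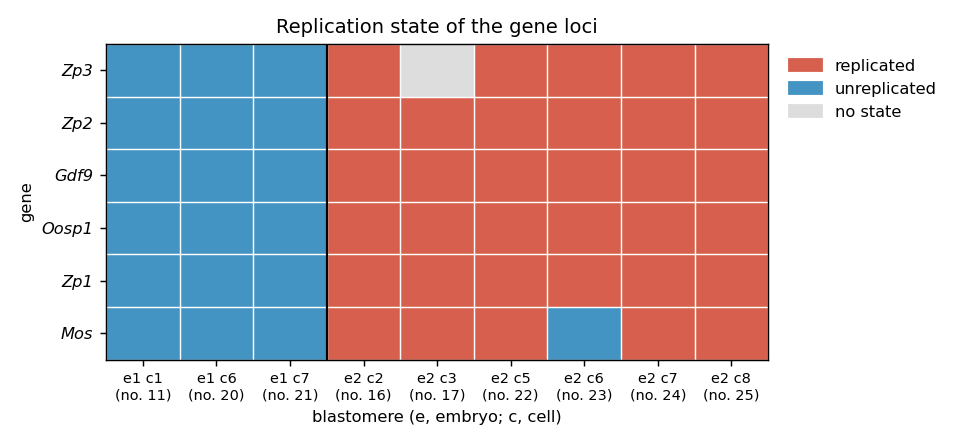
The grid gives the replication state of 6 loci (rows) in the 9 blastomeres (columns), with the black line between the embryos. All 18 states in embryo 1 are scored unreplicated and 34 of 36 in embryo 2 are replicated, the exceptions being Mos in cell 6 and Zp3 in cell 3. A uniform copy number before or after replication gives the unreplicated score, so the embryo 1 states are not particular to these loci. Over protein-coding genes with bins, 91.5% of the states in embryo 2 are replicated.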

How the data were processed

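RNA and DNA of single blastomeres were separated on carboxylic acid beads and sequenced. The authors sampled an equal number of reads from each cell, quantified them with Hisat and RSEM on mm10 (GENCODE M25) within ramdaq, and deposited TPM values per gene and per transcript, 1 column per cell. The authors also deposited a replication state score per 40 kb bin (1 replicated, -1 unreplicated, 0 no state), made with bwa and AneuFinder. Neither value keeps read depth, so no counting interval was computed.

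The labels described 13 cells. Columns for 9 of them were present, and the other 4 were left out of the analysis. In each of the 3 tables there were 14 further columns with no label of this series, which were not used. All RNA headers carried 1 embryo and cell, so columns were assigned by the closing number of the title, and in 9 of 9 columns the number of genes above 0 equalled that in the study's sample list.

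The genes, the lists and the ranges of label numbers were chosen with earlier results of these data known. Named genes were all 9 genes, the 3 highest by mean TPM in each other list, cumulus, granulosa or sperm markers above 1 TPM in a cell, and the 3 most correlated genes of each gene above 1 TPM in at least 7 cells. Other genes, such as markers listed at 0 in every cell, were named after their values were seen. Detection was TPM > 1 and differences used log2(TPM + 1), which understates changes of low genes. The pooled SD was taken over cells within groups. Loci and transcripts came from GENCODE M21 of the same build. A locus took the sign of the mean state of its bins. No p-value was computed. The code was tested on simulated data. Alternatives were the threshold, the pseudocount, the scaling, splits by range or embryo, and leaving out each cell. Python 3.11.15, numpy 2.4.6, pandas 2.3.3, scipy 1.17.1 and matplotlib 3.10.9 were used.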

Additional observations from a re-analysis of the deposited data

Results flagged for a closer look

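For each of the 9 genes, the number detected and the summed TPM, embryo 2 (6 cells) was searched for a value separated from its nearest neighbour by more than Dixon's limit at 1 in 20. Of these 11 groups 2 had such a cell. Mos was at 1.47 TPM in embryo 2 cell 2 and listed at 0 in the other 5. Figla was at 4.31 TPM in embryo 2 cell 7 and listed at 0 in the other 5. With 5 equal values at 0, any signal in 1 cell meets this limit, so the rate of 1 in 20 by chance does not apply to these groups.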

How the results depend on the processing

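With a threshold of TPM > 5, 2.22 of the 9 genes were detected per cell in place of 5.33, and scaling to protein-coding genes only moved the mean sum from 43.6 to 60.0 TPM, both by more than the SD between cells. Leaving out 1 cell gave 5.12 to 5.62 genes and sums of 41.4 to 46.8 TPM. The median embryo difference of 0.04 had no settled direction, since it was -0.27 to 0.09 when 1 cell was left out and -0.15 with a pseudocount of 0.1. The median difference between label ranges was 0.03 to 0.43 without 1 cell, -0.07 when cells were centred on their median and -0.03 within embryo 1. The Gdf9 difference was 0.93 to 1.24 and that of Oosp1 was -2.01 to -1.44 when 1 cell was left out. Both genes were picked out because their embryos did not overlap, so leaving out a cell could not change the sign. With a pseudocount of 0.1 the Oosp1 difference was -3.44, so its size rests on cells listed at 0. The same pseudocount gave 1.31 for Zp1 and 1.26 for Nobox, and without 1 cell Zp3 lay between -0.89 and -0.06. Of the other values, 34 replicated states were also found with the bin of the annotated start. No paired analysis was possible because the cell numbers only name cells within an embryo and no test was made. Depth is not kept in the tables, so a gene listed at 0 may be present below detection.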
